A study of Caenorhabditis elegans with 6 samples.

Results

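The genes described here belong to the nuclear part of the mitochondrial respiratory chain of *C. elegans*, together with cytochrome c, the ATP synthase and assembly factors of complex IV. They were chosen by symbol, as every gene of the nuo, cox, ucr, asb, asg, atp, cyc and isp classes together with mev-1, sdha-1, sdhb-1, sdhd-1, lpd-5 and 1 further gene of complex I. The rule found 45 genes among the 46936 listed. Their transcripts were measured by RNA-seq of whole wild-type N2 animals in 3 MProPow2 libraries and 3 control libraries. MProPow2 is a batch of a protein powder that contains milk fat globule membrane, and the MProPow2 animals grew from the L1 stage on plates supplemented with it, while control plates received water. Animals of both groups were fed *E. coli* OP50 at 20 °C, were moved at the L4 stage to plates with 5-fluorouracil, which prevents the production of progeny, and were collected on day 2 of adulthood. The 3 libraries of a group are biological replicates. Whole animals were sequenced, so fewer cells of a type and less RNA per cell cannot be told apart in any value below.

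The respiratory chain passes electrons from NADH (complex I) and succinate (complex II) through ubiquinone to complex III, then through cytochrome c to complex IV, which reduces oxygen. Complexes I, III and IV pump protons across the inner mitochondrial membrane, and complex V, the ATP synthase, lets them flow back to make ATP. Complexes I, III, IV and V combine subunits from nuclear and mitochondrial genes, whereas complex II is encoded in the nucleus alone. In *C. elegans*, mutations in several of these genes are known to alter lifespan and oxidative stress resistance, in both directions: isp-1 and nuo-6 mutants live longer than wild type, and mev-1 mutants are short-lived.

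The 45 genes comprised 8 of complex I, 4 of complex II, 7 of complex III, 2 for cytochrome c, 15 of the cox class and 9 of complex V. Of the 15 cox genes, 7 encode subunits of complex IV, and 8 (cox-10, cox-11 and cox-14 to cox-19) encode factors that assemble it and are not part of the finished complex, so these 8 are described apart. The rule does not reach every nuclear subunit, and 37 further genes of the chain or its assembly were kept as a separate list. Of the 45 genes, 42 had enough reads to be tested. The others were nuo-3, an accessory subunit of complex I, with 0, 0 and 0 counts in MProPow2 and 0, 2 and 1 in control; cyc-2.2, with 3, 9 and 1 counts in MProPow2 and 4, 0 and 2 in control; and cox-14, with 4, 3 and 1 counts in MProPow2 and 0, 3 and 2 in control. In the Ensembl 115 annotation, which may not be the one used for counting, nuo-3 shares 72.6% of its exon bases with a same-strand neighbour, cox-14 shares 75.7% and cox-16 shares 61.6%, so the values of these genes are uncertain. The tested genes had between 174 and 54250 counts in any library.

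The libraries held from 29347851 to 32145772 counts in MProPow2 and from 28859395 to 37501098 in control. Over the whole table, edgeR's quasi-likelihood test called 437 of the 14534 genes tested at an adjusted p under 0.05, 223 higher and 214 lower in MProPow2. MProPow2 replicate 3 stood apart from the other MProPow2 libraries. Without it 1044 genes were called, and 7 germline markers summed to 2434 CPM (CPM are counts scaled to a common library size with TMM factors) in it, against 1904 and 1702 CPM in MProPow2 replicates 1 and 2. The counts over the chain, the counts by complex, the paralogue shares and the marker counts are given below with and without it. So are the numbers below 0 in the lists of other mitochondrial genes.

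No respiratory chain gene passed the test, but nearly every one had a lower mean level in MProPow2. Of the 42 genes tested, 0 were called at adjusted p by edgeR's quasi-likelihood test, where 3.01% of all genes were called. DESeq2 called 2 of the 42 (atp-4 and asg-2), and it called 4.62% of all genes it adjusted. The log2 fold change, MProPow2 over control, was below 0 for 41 of the 42 with TMM scaling, against 52.9% of all genes. It was below 0 for 40 with RLE scaling and 37 with upper-quartile scaling. The share of all genes below 0 is not given for these, where the median of all genes was -0.002 and 0.05. The median of the 42 was -0.15, beside -0.01 for all genes. At an unadjusted p under 0.05, 13 genes were lower and 0 were higher, beside 7.75% of all genes lower and 9.13% higher. All 3 MProPow2 libraries lay below all 3 control libraries for 20 of the 42 genes, or 47.6%, beside 12.3% of all genes, and the opposite held for 0, beside 11.1%. The median FPKM (fragments per kilobase of gene, scaled for depth) was 155 for the 42 genes, beside 9.35 for all genes tested. The shares of all genes are therefore not shares among genes of like level. The genes were measured in the same 6 libraries and are not independent of each other, so these counts are a description and not a test of the group.

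The differences were small. Mean CPM in MProPow2 ran from 73.3% to 100.3% of that in control, with a median of 89.9%, and 0 genes differed by more than 1.5-fold. Standard errors of the log2 fold change ran from 0.076 to 0.20, with a median of 0.097. The 95% interval excluded 0 for 13 genes, and over all 42 genes the intervals reached from -0.73 at the lowest bound to 0.34 at the highest. Without MProPow2 replicate 3, 37 of the 42 genes were below 0 and 13 were lower at unadjusted p. The share of all genes lower at unadjusted p in that fit is not given here. At adjusted p that fit called 7.02% of all genes, beside 3.01% with all libraries. Without that library, 23 of the 42 had all MProPow2 libraries below all control libraries, beside 20.6% of all genes.

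**Figure D1:**
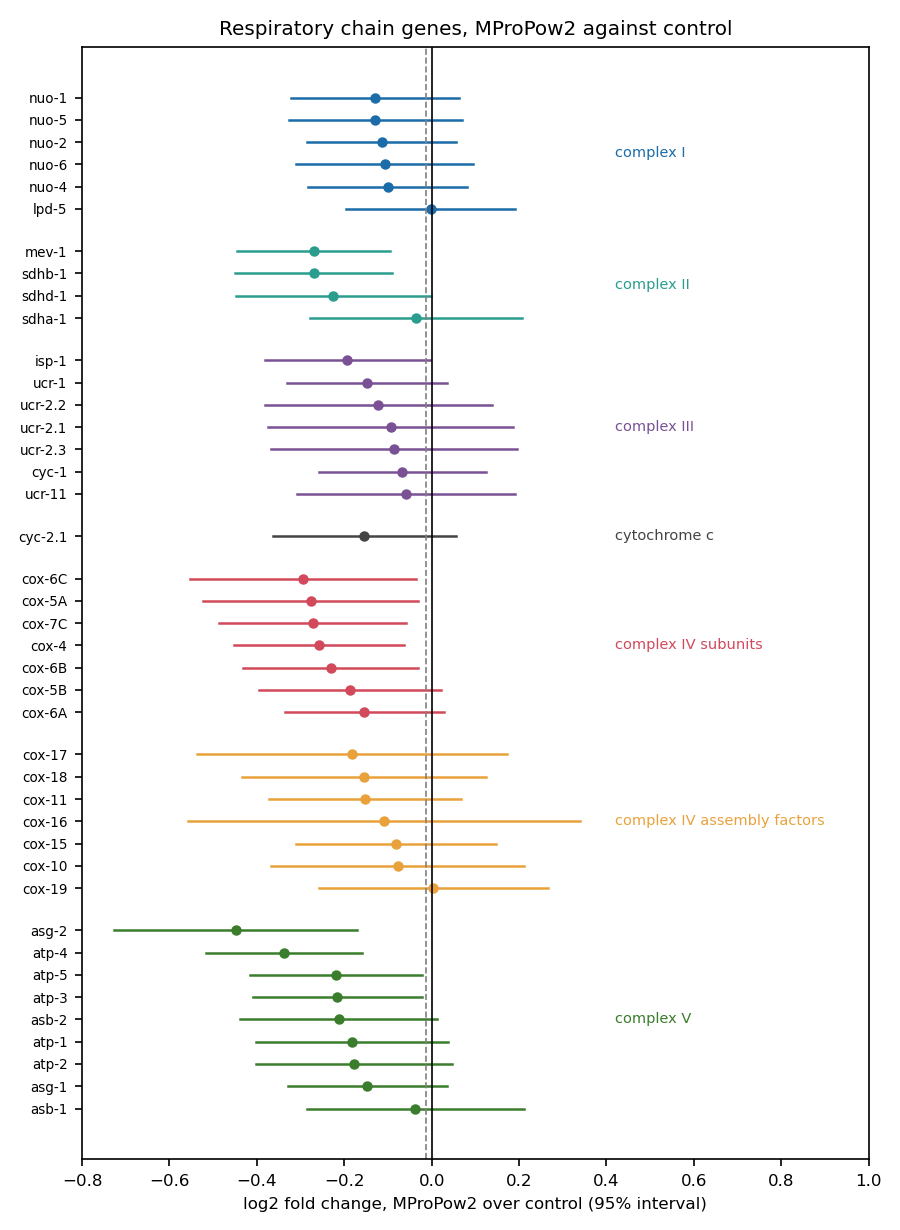
Log2 fold change (MProPow2 over control) of 41 of the 42 respiratory chain genes tested, grouped by complex; points are edgeR estimates, bars are 95% intervals, the solid line marks 0 and the dashed line the median of all genes (-0.01). The estimates lie between -0.45 (asg-2) and 0.004 (cox-19), and 13 intervals exclude 0.

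Summed, the 45 genes accounted for 7842, 8211 and 8198 CPM in MProPow2, against 9248, 8860 and 9250 CPM in control. The sums did not overlap, and their means were 8084 ± 209 CPM in MProPow2 and 9120 ± 225 CPM in control (SD, n = 3 each), or 88.6% of control. As a share of all counts, which needs no scaling factor, the 45 genes took 0.786%, 0.840% and 0.798% of the MProPow2 libraries and 0.921%, 0.886% and 0.926% of the control libraries. These shares did not overlap either.

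**Figure D2:**
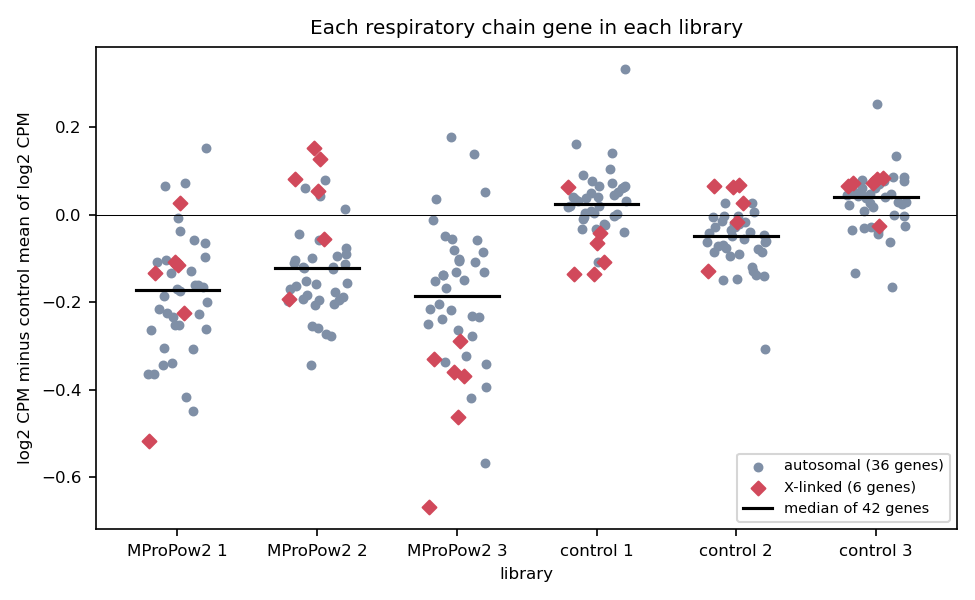
Log2 CPM of each of the 42 genes tested, minus the mean log2 CPM of the control libraries, in each MProPow2 and control library; diamonds are the 6 X-linked genes, circles the 36 autosomal genes, and bars the medians of all 42. The medians are -0.17, -0.12 and -0.19 in MProPow2 and 0.03, -0.05 and 0.04 in control, and each X-linked gene has its lowest MProPow2 value in replicate 3.

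Complex I takes electrons from NADH. All 7 of its genes tested had a log2 fold change below 0 (lpd-5 was above 0 with RLE or upper-quartile scaling), with a median of -0.11, and 0 were lower at unadjusted p. For 4 of them (nuo-1, nuo-2, nuo-4 and nuo-5) the groups did not overlap. The summed level of all complex I genes was 1061 ± 18.1 CPM in MProPow2 and 1146 ± 41.3 CPM in control (SD, n = 3 each). The gene of highest FPKM was nuo-6, which encodes an accessory subunit. It had 127, 133 and 136 CPM in MProPow2, against 142, 129 and 156 CPM in control, so the groups overlapped (log2 fold change -0.11, standard error 0.091). The gene for another accessory subunit, lpd-5, differed least, with 93.1, 98.2 and 101 CPM in MProPow2, against 102, 88.4 and 103 CPM in control, and a 95% interval of the log2 fold change from -0.20 to 0.19.

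Complex II, succinate dehydrogenase, also belongs to the TCA cycle. All 4 of its genes were below 0 (sdha-1 was above 0 with upper-quartile scaling), with a median of -0.25, and 3 were lower at unadjusted p. The gene for the cytochrome b560 anchor, mev-1, had 54.9, 58.2 and 59.8 CPM in MProPow2, against 69.9, 67.8 and 70.8 CPM in control. The groups did not overlap, but the log2 fold change of -0.27 (standard error 0.078) did not pass the test (edgeR adjusted p = 0.11). The iron-sulphur subunit gene sdhb-1 had 96.4, 108 and 104 CPM in MProPow2, against 126, 119 and 128 CPM in control. It showed the same separation, with a log2 fold change of -0.27 (standard error 0.081, edgeR adjusted p = 0.12). The other membrane anchor gene, sdhd-1, had a log2 fold change of -0.22 (standard error 0.10). The flavoprotein gene sdha-1 had 84.1, 90.2 and 67.5 CPM in MProPow2, against 80.2, 86.5 and 81.1 CPM in control. In MProPow2 replicates 1 and 2 it lay within or above the control range, and its log2 fold change was -0.04 (standard error 0.11).

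Complex III passes electrons to cytochrome c. Its 7 genes were all below 0 (ucr-11 was above 0 with upper-quartile scaling), with a median of -0.09, and 1 was lower at unadjusted p. That gene was isp-1, which encodes the Rieske iron-sulphur protein. It had 231, 237 and 240 CPM in MProPow2, against 277, 256 and 277 CPM in control, with no overlap (log2 fold change -0.19, standard error 0.084, edgeR adjusted p = 0.29). The cytochrome c1 gene, cyc-1, had 295, 291 and 282 CPM in MProPow2, against 317, 298 and 294 CPM in control, with overlap and a log2 fold change of -0.07 (standard error 0.086). The core protein genes ucr-2.1, ucr-2.2 and ucr-2.3 had log2 fold changes of -0.09, -0.12 and -0.09, all with overlapping groups. The electron carrier itself is encoded by cyc-2.1, which had 318, 358 and 320 CPM in MProPow2, against 377, 351 and 380 CPM in control. MProPow2 replicate 2 lay above the lowest control value, and the estimated log2 fold change was -0.15 with a standard error of 0.094.

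Complex IV, cytochrome c oxidase, reduces oxygen to water. All 7 subunit genes were below 0, with a median of -0.26, and 5 were lower at unadjusted p (cox-4, cox-5A, cox-6B, cox-6C and cox-7C). The groups did not overlap for 6 of the 7, the exception being cox-5A. Their summed level was 1352, 1482 and 1372 CPM in MProPow2, against 1673, 1581 and 1695 CPM in control, or 85.0% of control. The subunit gene of highest FPKM, cox-6B, had 226, 233 and 205 CPM in MProPow2, against 266, 250 and 265 CPM in control. Its log2 fold change was -0.23 (standard error 0.089, edgeR adjusted p = 0.23). The assembly factor genes were expressed at a much lower level. Of the 7 tested, 6 were below 0, with a median of -0.11, and 0 were lower at unadjusted p or separated the groups. Their sum was 142 ± 1.80 CPM in MProPow2 and 153 ± 9.46 CPM in control (SD, n = 3 each). The exception was cox-19, with 18.1, 18.2 and 15.5 CPM in MProPow2, against 16.98, 16.6 and 18.2 CPM in control. Its log2 fold change of 0.004 (standard error 0.12) was the only estimate above 0 among the 42 genes, and DESeq2 gave -0.01.

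Complex V uses the proton gradient to make ATP. All 9 of its genes were below 0 (asb-1 was above 0 with upper-quartile scaling), with a median of -0.21, 4 were lower at unadjusted p (atp-3, atp-4, atp-5 and asg-2), and 6 separated the groups. The catalytic beta subunit gene atp-2 had the highest FPKM of the 45 genes, 664 ± 43.9 in MProPow2 and 746 ± 9.15 in control (SD, n = 3 each). In CPM it had 1233, 1272 and 1388 in MProPow2, against 1471, 1447 and 1487 in control. These values did not overlap (log2 fold change -0.18, standard error 0.10, edgeR adjusted p = 0.42).

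The smallest p among the 42 respiratory chain genes tested belonged to atp-4, which encodes the F6-type coupling subunit. It had 120, 133 and 128 CPM in MProPow2, against 158, 159 and 165 CPM in control, so the groups did not overlap. Its estimated log2 fold change was -0.34 with a standard error of 0.080, and edgeR's adjusted p of 0.055 fell just short of the threshold. The largest difference among the 42 genes belonged to asg-2, which encodes a g-type subunit. It had 48.1, 60.3 and 43.3 CPM in MProPow2, against 72.0, 63.0 and 72.1 CPM in control, with MProPow2 replicate 2 close to control replicate 2. Its log2 fold change was -0.45 (standard error 0.12, edgeR adjusted p = 0.098). Without MProPow2 replicate 3, its lowest library, the estimate was -0.350, beside -0.346 for atp-4. DESeq2, which called 4.62% of all genes it adjusted, called both, atp-4 with an adjusted p of 0.020 and asg-2 with 0.020. In edgeR both were called with no filter on low counts (adjusted p = 0.040 and 0.0032), where 4.61% of all genes were. Of the libraries left out in turn, asg-2 was called without MProPow2 replicate 2 (edgeR adjusted p = 0.022, with 2.64% of all genes called) and atp-4 without MProPow2 replicate 3 (edgeR adjusted p = 0.034, with 7.02%). Over all alternatives the adjusted p ran from 0.020 to 0.22 for atp-4 and from 0.0032 to 0.28 for asg-2.

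Without MProPow2 replicate 3, the counts by complex changed by at most 2 genes. Below 0 were 7 of 7 genes of complex I, 3 of 4 of complex II, 5 of 7 of complex III, 7 of 7 complex IV subunits, 5 of 7 assembly factors and 9 of 9 of complex V. At unadjusted p, 0, 2, 2, 3, 0 and 6 genes of these groups were lower, in the same order, and the groups did not overlap for 4, 2, 3, 6, 1 and 7. Beside these stand 20.6% of all genes with all MProPow2 libraries below all control libraries, and 7.02% called at adjusted p. Complex III had a median of -0.05 without that library, against -0.09 with it.

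**Figure D3:**
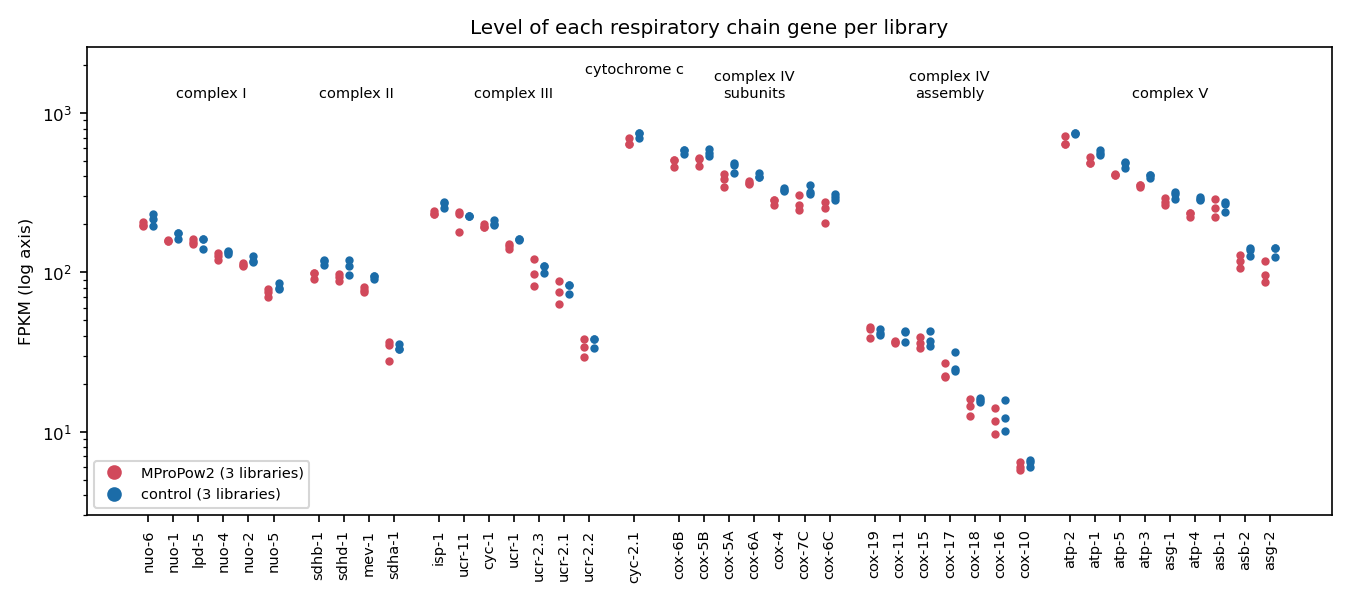
FPKM of 41 of the 42 respiratory chain genes tested in each library, on a log axis, grouped by complex and ordered by mean level within it; MProPow2 libraries are left of control libraries for each gene. Levels run from 6.04 (MProPow2 mean) and 6.35 (control mean) for cox-10 to 664 and 746 for atp-2.

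Several subunits are encoded by more than 1 gene, which allows the paralogues to be compared within a library, with no scaling between libraries. The share of asb-1 in the counts of the b-type subunit genes asb-1 and asb-2 was 65.2%, 60.1% and 70.4% in MProPow2, against 65.0%, 60.02% and 62.6% in control (exact permutation test, two-sided p = 0.4). The share of asg-2 in the counts of asg-1 and asg-2 was 26.7%, 31.7% and 23.7% in MProPow2, against 31.7%, 31.1% and 32.3% in control (exact permutation p = 0.2). The share of ucr-2.3 in the ucr-2 trio was 45.8%, 38.1% and 55.2% in MProPow2, against 49.3%, 43.4% and 45.6% in control (exact permutation p = 0.9). No share differed beyond the spread between libraries, and with 3 libraries against 3 the smallest p this test can give is 0.1. The asb-1 share was higher in MProPow2 by 2.70 percentage points with all libraries and by 0.130 without MProPow2 replicate 3, and the asg-2 share differed by -4.38 points with all libraries and by -2.54 without it. The ucr-2.3 share differed by 0.270 points with all libraries and by -4.15 without it. For cytochrome c, cyc-2.2 made up at most 0.0837% of the counts in any MProPow2 library and 0.0369% in any control library, so cyc-2.1 supplied nearly all the transcript (exact permutation p = 0.5).

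Within MProPow2, replicates 3 and 2 held opposite ends of the range of the asb, asg, ucr-2 and cyc-2 shares. The same held for a pair added after the values were seen, in which sdha-2 lies outside the 45 genes. The share of sdha-2 in the counts of sdha-1 and sdha-2 was 65.6%, 59.7% and 73.0% in MProPow2, against 67.6%, 62.8% and 64.7% in control. The exact permutation p was 0.8 for this pair.

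**Figure D4:**
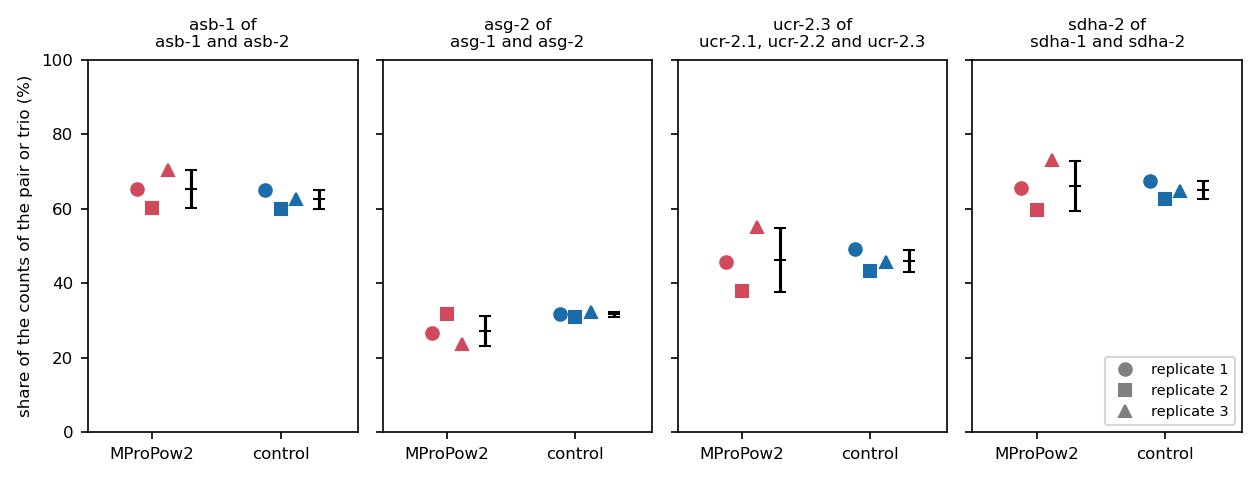
Share of the counts (%) of each paralogue pair or trio taken by the gene named first, in each MProPow2 and control library; symbols mark the replicate, and the bars show mean ± SD (n = 3). In MProPow2 the asb-1 share runs from 60.1% to 70.4% and the ucr-2.3 share from 38.1% to 55.2%, a wider spread than in control.

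The genes were also split by chromosome. Of the 42 genes tested, 6 are X-linked (asb-2, asg-2, sdha-1, ucr-2.1 and ucr-2.2 among them), and MProPow2 replicate 3 was the lowest MProPow2 library for 6 of the 6. Of the 36 autosomal genes it was the lowest for 11, and it was the lowest for 40.9% of all genes. It was also the lowest for 58.4% of all 2129 X-linked genes tested and for 37.8% of all autosomal genes, so the low values were not limited to the respiratory chain. The X-linked genes summed to 508, 582 and 433 CPM in MProPow2, against 540, 578 and 595 CPM in control, so MProPow2 replicate 2 lay within the control range, and replicates 1 and 3 lay below it. The split by chromosome was made after the values were seen. The median log2 fold change of the X-linked genes was -0.14, and -0.03 without MProPow2 replicate 3. For the autosomal genes it was -0.15, and -0.17 without that library. Over all X-linked genes the median log2 fold change was 0.06, and the median of log2 CPM relative to the control mean was 0.07, 0.20 and -0.07 in MProPow2, against -0.06, 0.06 and 0.02 in control.

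Marker genes of 7 tissues or cell types were read from the same fit, and they did not all lie on the same side of 0. All 6 body wall muscle markers were below 0, with a median of -0.31. Of these, unc-27 (troponin I) and mup-2 (troponin T) fell in edgeR, with log2 fold changes of -0.50 and -0.49 (adjusted p = 0.030 and 0.024), and DESeq2 also called pat-10 (troponin C). Neither unc-27 nor mup-2 was called by limma on FPKM, and of the 6 fits with 1 library left out, unc-27 was called only without MProPow2 replicate 3 and mup-2 only without MProPow2 replicate 2 or 3. Over all alternatives the adjusted p ran from 4.6e-04 to 0.17 for unc-27 and from 9.8e-04 to 0.10 for mup-2. The muscle markers summed to 969 to 1063 CPM in MProPow2, against 1208 to 1298 CPM in control.

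The 6 intestine markers found, of 7 sought, were also all below 0, with a median of -0.27. Of these, 0 were called by edgeR (4 were lower at unadjusted p) and 1, ifb-2, by DESeq2, and they summed to 765 to 1000 CPM in MProPow2, against 1035 to 1065 CPM in control. The 4 epidermis markers tested, of 6, were all below 0, with a median of -0.29 and 0 called by edgeR or DESeq2 (2 lower at unadjusted p in edgeR), and all 6 summed to 1202 to 1280 CPM in MProPow2, against 1331 to 1771 CPM in control. The 7 neuron markers had a median of 0.02, with a range of -0.80 to 0.24. The lowest, unc-13, which acts in synaptic vesicle release, had 16.7, 18.6 and 8.94 CPM in MProPow2, against 24.8, 28.7 and 23.6 CPM in control, and was called by DESeq2 but not by edgeR (adjusted p = 0.11). The neuron markers summed to 208 to 241 CPM in MProPow2, against 231 to 243 CPM in control.

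The 7 germline markers had a median of -0.05, and summed to 1904, 1702 and 2434 CPM in MProPow2, against 2313, 2060 and 1816 CPM in control. The 6 oocyte markers had a median of -0.08, and summed to 3589, 3105 and 4594 CPM in MProPow2, against 4487, 3928 and 3241 CPM in control. In both lists MProPow2 replicate 3 was the highest of the 6 libraries. The sperm markers lay on the other side: 3 of the 4 tested, of 6, were above 0, with a median of 0.57, and all 6 summed to only 5.18, 9.96 and 5.50 CPM in MProPow2, against 4.38, 4.29 and 4.92 CPM in control. Of these, ssp-10 was called higher by DESeq2 but not by edgeR (adjusted p = 0.074). Without MProPow2 replicate 3, edgeR called 7.02% of all genes, beside 3.01% with all libraries. In that fit 5 of the 6 muscle markers were below 0 with 4 called lower, and 5 of the 6 intestine markers with 0 called. All 7 germline markers (median -0.21) and all 6 oocyte markers (median -0.26) were below 0, with 0 called. Of the 7 neuron markers, 3 were below 0 and 1 was called lower (median 0.05). All 4 epidermis markers tested were below 0, with 0 called (median -0.22). Of the 4 sperm markers tested, 0 were below 0 and 1 was called higher (median 0.69). No muscle, intestine, neuron, germline or oocyte marker was at 0 in any library. The part of tissue makeup in the respiratory chain values was not tested.

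Other mitochondrial genes were compared as lists. The 12 mitochondrially encoded subunit genes did not share the direction of the nuclear ones: 7 were above 0 and 5 below, with a median of 0.01, 0 called by edgeR or DESeq2, and 0 at an unadjusted p under 0.05. They summed to 12630, 10717 and 9956 CPM in MProPow2, against 10240, 10689 and 12062 CPM in control. The ratio of their counts to those of the 45 nuclear genes was 1.61, 1.31 and 1.21 in MProPow2, against 1.11, 1.21 and 1.304 in control, so the groups overlapped. Of the 37 further nuclear genes of the chain or its assembly, 27 were below 0, with a median of -0.07, and 4 were lower at unadjusted p, with 0 called by edgeR and 1 by DESeq2. That gene was F45H10.3, named ndua-7 in Ensembl 115, with 58.2, 69.3 and 60.4 CPM in MProPow2, against 90.4, 78.5 and 77.2 CPM in control (log2 fold change -0.39, standard error 0.099, edgeR adjusted p = 0.073). Without MProPow2 replicate 3, 4 of the 12 mitochondrially encoded genes were below 0 (median 0.10), with 0 called. In that fit 31 of the 37 further nuclear genes were below 0 (median -0.10), with 1 called lower. Of all genes, that fit called 7.02%.

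Of the 15 TCA cycle genes, 14 were below 0, with a median of -0.13, 0 called by edgeR or DESeq2, and 4 lower at unadjusted p in edgeR. Of the 8 ubiquinone synthesis genes, 7 were below 0, with a median of -0.08, 0 called by edgeR or DESeq2, and 1 lower at unadjusted p in edgeR. Of the 5 genes tested for adenine nucleotide carriers and ATP synthase inhibitors, 3 were below 0 and 2 above, with a range of -0.25 to 0.25 and 0 called by edgeR or DESeq2 (2 lower at unadjusted p in edgeR). The carrier ant-1.1, which exchanges ADP for ATP across the inner membrane, had a log2 fold change of -0.25 (standard error 0.10, edgeR adjusted p = 0.27). With all libraries, 37 of the 71 mitochondrial ribosomal protein genes were below 0 and 34 above, with a median of -0.01. Of these, 0 were called by edgeR or DESeq2 (1 higher and 1 lower at unadjusted p in edgeR). Their summed level was 3521 ± 181 CPM in MProPow2 and 3512 ± 178 CPM in control (SD, n = 3 each). Without MProPow2 replicate 3, 45 of the 71 were below 0, with a median of -0.05. In that fit 13 of the 15 TCA cycle genes were below 0 (median -0.13) and 6 of the 8 ubiquinone synthesis genes (median -0.10). Of the 5 carrier and inhibitor genes, 3 were below 0 (median -0.06). In these lists 0 genes were called, beside 7.02% of all genes.

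**Figure D5:**
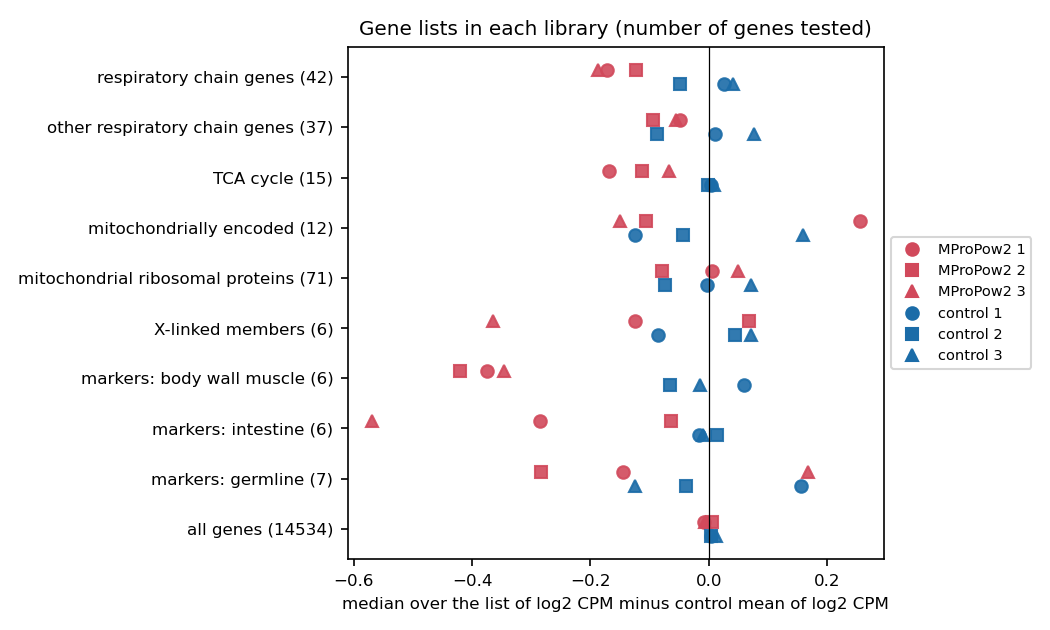
Median over each gene list of log2 CPM minus the control mean of log2 CPM, in each library (MProPow2 above control in each row; the number of genes tested is in parentheses). The respiratory chain genes lie at -0.17, -0.12 and -0.19 in MProPow2, below all 3 control libraries, and the TCA cycle, muscle and intestine lists are separated in the same way. The libraries overlap for the other respiratory chain genes (-0.05, -0.09 and -0.05 in MProPow2, against 0.01, -0.09 and 0.08 in control). They also overlap for the X-linked members, the mitochondrially encoded, mitochondrial ribosomal and germline lists, and all genes.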

How the data were processed

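Whole-animal RNA was extracted with TRIzol and selected with poly-T beads, and per the labels the libraries were processed with CASAVA, HISAT2 and featureCounts. The authors deposited raw counts per gene and FPKM values. No source used here names the genome build, annotation or strand setting, so coordinates are left out, and overlapping genes may hold each other's reads. Samples were grouped by title, and each column matched a sample.

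The count test was run in R 4.3.3 with edgeR 4.0.16, using filterByExpr (minimum count 10), TMM scaling and the quasi-likelihood F test of group alone, with Benjamini-Hochberg adjustment over 14534 genes and a threshold of 0.05. Standard errors are the log2 fold change over the square root of F. The common biological coefficient of variation was 13.9%, which with 3 libraries per group limits the precision. Replicates differed by more than counting noise (chi-square per degree of freedom at least 14.9). Alternatives were RLE and upper-quartile scaling, other count filters, DESeq2 1.42.0, a replicate term, leaving out each library, and limma 3.58.1 on log2(FPKM + 1) or log2(FPKM + 0.1), with or without a minimum mean FPKM of 0.1. The scripts were tested on simulated data.

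The genes and lists were chosen with earlier results of these data known. Genes named with their values include the 4 lower ones of smallest p, the single one above 0, paralogues, the highest FPKM per complex, lpd-5, mev-1, isp-1, cyc-1 and atp-2, and untested genes. Others were named after their values were seen. Gene names for further list members, chromosomes and overlaps come from RefSeq and Ensembl 115 tables. The values of 1 complex I gene are not reported here, although it stays in the counts and medians.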

Additional observations from a re-analysis of the deposited data

How the results depend on the processing

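The median of the 42 genes stayed below 0 in all 15 alternatives. It ran from -0.19 to -0.13 when single libraries were left out, and was -0.088 with upper-quartile scaling, which raised the median of all genes to 0.05. Relative to the median of all genes it ran from -0.18 to -0.12. With upper-quartile scaling the medians were -0.049 (complex I), -0.18 (complex II), -0.026 (complex III), -0.19 (complex IV subunits), -0.040 (assembly factors) and -0.15 (complex V), 5 genes were lower at unadjusted p, and the whole table split into 229 higher and 131 lower genes, in place of 223 and 214. Leaving out single libraries gave medians of -0.15 to -0.051 for complex III and -0.27 to -0.20 for complex IV subunits, and 5 to 15 genes lower at unadjusted p. Genes called in the whole table numbered 1226 with no filter, 729 with DESeq2, 97, 148 and 45 with limma (pseudocount 1, pseudocount 0.1, and pseudocount 1 with no filter), and 72 to 1044 with single libraries left out. Respiratory chain genes called numbered 2 with no filter and 2 with DESeq2 (atp-4 and asg-2 in both), and 0 to 1 with single libraries left out: asg-2 without MProPow2 replicate 2 and atp-4 without MProPow2 replicate 3. Same-numbered libraries did not deviate together (r = -0.048, 0.096 and -0.12), and for differently numbered libraries r ran from -0.2 to 0.189. The labels do not say whether same-numbered samples were collected together, and these values cannot settle it. With a replicate block, 192 genes (1.32%) were called, 0 of them in the chain, and 7 chain genes were lower at unadjusted p. With that block atfs-1, unc-27 and mup-2 were no longer called (edgeR adjusted p = 0.082, 0.059 and 0.072). The share of all genes lower at unadjusted p is given only for the main fit (7.75%). The counts at unadjusted p in the alternatives therefore have no such share beside them. Estimates near 0 changed sign: cox-19 (DESeq2 -0.0058; libraries left out -0.036 to 0.073), asb-1 (upper quartile 0.026; -0.13 to 0.040), ucr-2.1 (-0.23 to 0.021), ucr-2.3 (-0.24 to 0.027) and lpd-5 (RLE 0.0079, upper quartile 0.063, at least 10 counts 0.0078, limma 0.0080, 0.0080 and 0.0080; -0.069 to 0.046). The cause was not tested. The median standard error of 0.097, from 3 libraries per group, limits the precision of each estimate.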

Other observations

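Among 9 genes of the mitochondrial unfolded protein response, a pathway that adjusts nuclear transcription to mitochondrial stress, 6 were below 0, against 52.9% of all genes. Their median log2 fold change was -0.09. Without MProPow2 replicate 3, 7 of the 9 were below 0, with a median of -0.08. With all libraries 1 was called by edgeR, where 3.01% of all genes were called. That gene was atfs-1, which encodes the transcription factor that drives the response. It had 66.8, 61.6 and 69.2 CPM in MProPow2, against 88.7, 87.8 and 84.4 CPM in control, with no overlap, and fell by 0.40 on the log2 scale (standard error 0.079, edgeR adjusted p = 0.031). DESeq2 called it too, but limma on FPKM did not (adjusted p from 0.10 to 0.14), and of the 6 edgeR fits with 1 library left out it was called only without MProPow2 replicate 3 (adjusted p = 0.0076, against 0.054 to 0.14 in the others). The mitochondrial chaperone gene hsp-6 had 437, 410 and 426 CPM in MProPow2, against 544, 496 and 444 CPM in control (log2 fold change -0.22, edgeR adjusted p = 0.32). The other chaperone gene, hsp-60, had a log2 fold change of 0.06, and ubl-5, a ubiquitin-like cofactor of the response, had 0.22, with all 3 MProPow2 libraries above all 3 control libraries but an edgeR adjusted p of 0.33. That separation held for 11.1% of all genes, and the opposite one, seen for atfs-1, for 12.3%.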
